A study of Mus musculus with 24 samples.

Results

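Transcripts of 10 genes of muscle protein breakdown were followed in mouse quadriceps: the ubiquitin ligases Fbxo32, Trim63, Fbxo40, Fbxo30, Rnf123 and Cblb, the transcription factors Foxo1 and Foxo3, the protease gene Capn3 and the mitophagy receptor gene Bnip3. They were chosen by name from the 24062 genes of the count tables. All 10 were listed in both tables and all 10 passed the filter on low counts, so no member was left out.

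The study sequenced polyadenylated RNA of whole quadriceps from C57BL/6 mice in 24 libraries. WT mice were compared with delEx44 mice, which lack exon 44 of the dystrophin gene Dmd and model Duchenne muscular dystrophy, and with corrected mice, which are delEx44 mice edited with Cas9. Each genotype had 3 libraries from sedentary mice at 4 weeks, 2 from mice of 8 weeks that had run and 3 from sedentary mice at 18 months. The run mice ran down a slope of 15 degrees at 12 m/min on alternate days over 1 month, beginning at an age of 1 month, so running and the step from 4 to 8 weeks cannot be told apart. Corrected mice carried an AAV9 vector for the guide RNA and an AAV9 vector for SpCas9, injected into the peritoneum at postnatal day 4. The 4-week and run mice got 8e13 vg/kg of each, with a self-complementary guide vector. The 18-month mice got 2.5e14 vg/kg of a single-stranded guide vector and 5e13 vg/kg of SpCas9, so age, dose and vector form cannot be told apart in corrected muscle. The labels do not give litters or sex, and the p-values measure the spread between these samples.

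Muscle fibres lose protein mainly through the ubiquitin-proteasome system, in which a ubiquitin ligase picks the protein to be tagged. Fbxo32 (atrogin-1) and Trim63 (MuRF1) encode the muscle ligases that are induced in most kinds of atrophy. FoxO factors switch these genes on, and insulin and AKT signalling keeps FoxO proteins out of the nucleus. Calpain-3, the product of Capn3, is a muscle protease held on the giant protein titin, and its loss causes a limb-girdle muscular dystrophy.

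The promoters of Trim63, Capn3 and Fbxo40 are shown because the results turn on these genes: Trim63 varied with Foxo1 between libraries, and Capn3 and Fbxo40 fell in delEx44 muscle relative to the bulk of genes. Sequences are from RefSeq on GRCm38.p6 and read 5′ to 3′ on the strand of the gene, from 250 bases before the start of transcription. Each holds 220 bases and overlaps no annotated exon. Capitals mark the forkhead core TGTTTAC (the core to which FoxO proteins bind), the myogenic E-box CAGCTG or the MEF2 motif.
Trim63, chr4:134314870-134315089, plus strand: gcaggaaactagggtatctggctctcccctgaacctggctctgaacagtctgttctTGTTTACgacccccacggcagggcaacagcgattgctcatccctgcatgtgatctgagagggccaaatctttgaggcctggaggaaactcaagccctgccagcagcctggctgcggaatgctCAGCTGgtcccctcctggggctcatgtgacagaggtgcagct
Capn3, chr2:120463343-120463562, plus strand: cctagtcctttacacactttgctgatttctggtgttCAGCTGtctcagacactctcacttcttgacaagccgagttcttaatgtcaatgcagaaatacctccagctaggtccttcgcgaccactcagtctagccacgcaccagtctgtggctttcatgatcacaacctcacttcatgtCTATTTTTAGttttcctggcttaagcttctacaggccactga
Fbxo40, chr16:36990498-36990717, minus strand: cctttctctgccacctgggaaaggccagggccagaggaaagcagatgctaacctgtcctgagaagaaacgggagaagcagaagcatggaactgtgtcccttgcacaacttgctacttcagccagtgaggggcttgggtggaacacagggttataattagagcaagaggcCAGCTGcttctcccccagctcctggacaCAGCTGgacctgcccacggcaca
In Trim63 the forkhead core began at -194 and the E-box at -72, counted from the start of transcription. In Capn3 the E-box began at -214 and the MEF2 motif at -72, and in Fbxo40 E-boxes began at -81 and -53. Searched on both strands over 250 bases before 32851 RefSeq starts, the forkhead core was in 3.17%, the MEF2 motif in 0.508% and the E-box in 13.0% of promoters, and none of these motifs overlaps another here. RefSeq promoter entries matched 9 of the 10 genes (11 entries), all but Fbxo32. Of these, Rnf123 alone held a further forkhead core, at -144 on the strand opposite to the gene. A downstream entry of Fbxo40 held an E-box at -89. The other Capn3 entry (chr2:120476659-120476878) held none of these motifs. A match describes letters and does not show binding.

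Libraries of the first table (4 weeks and run) held 30552867 to 38090522 gene counts and those of 18 months 23125930 to 31254175. Dmd transcripts stood at 18.3%, 26.8% and 23.1% of the WT mean in delEx44 muscle at 4 weeks, after running and at 18 months, and at 74.1%, 59.8% and 63.3% in corrected muscle, with no overlap between genotypes. All 12 muscle fibre markers were detected in all libraries. Levels are given as CPM, a gene's counts as a part of the library's TMM-scaled total. The summed level of these markers was lower in delEx44 muscle: 47794 to 60577 CPM against 95808 to 109776 CPM in WT at 4 weeks, 77448 to 82910 against 93152 to 94558 CPM after running, and 41465 to 49229 against 65366 to 72157 CPM at 18 months. Macrophage markers (10 genes) were higher in delEx44 muscle, with 1642 to 2366 against 286 to 338 CPM in WT at 4 weeks and 857 to 984 against 210 to 300 CPM at 18 months. In whole muscle, fewer fibres and less RNA per fibre cannot be told apart. Among 4-week libraries WT replicate 3 stood apart in neutrophil markers (218 CPM, against 24.8 CPM or less in the others).

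Per length, Trim63 was the most abundant of the 10 transcripts in WT muscle and Foxo3 the least. At 4 weeks Trim63 reached 95.3 CPM per kb of exon, followed by Bnip3 (59.7), Capn3 (52.0) and Fbxo40 (45.2 CPM per kb), whose neighbours in this order overlapped between libraries. Rnf123 at 23.1 and Fbxo32 at 11.9 CPM per kb were each clear of their neighbours. Fbxo30 (5.46) and Foxo1 (5.03 CPM per kb) overlapped, and Cblb (2.54) and Foxo3 (1.84 CPM per kb) closed the order. Fbxo32 moved most in rank: in WT at 18 months it was second at 96.1 CPM per kb, overlapping Bnip3 (91.6 CPM per kb), behind Trim63 at 142 CPM per kb. In delEx44 muscle at 18 months Bnip3 was first (91.6 CPM per kb), above Fbxo32 (57.8) and Trim63 (52.4 CPM per kb). The 18-month libraries are a separate count table, so a level difference between it and the younger groups cannot be told apart from the sequencing run.

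**Figure D1:**
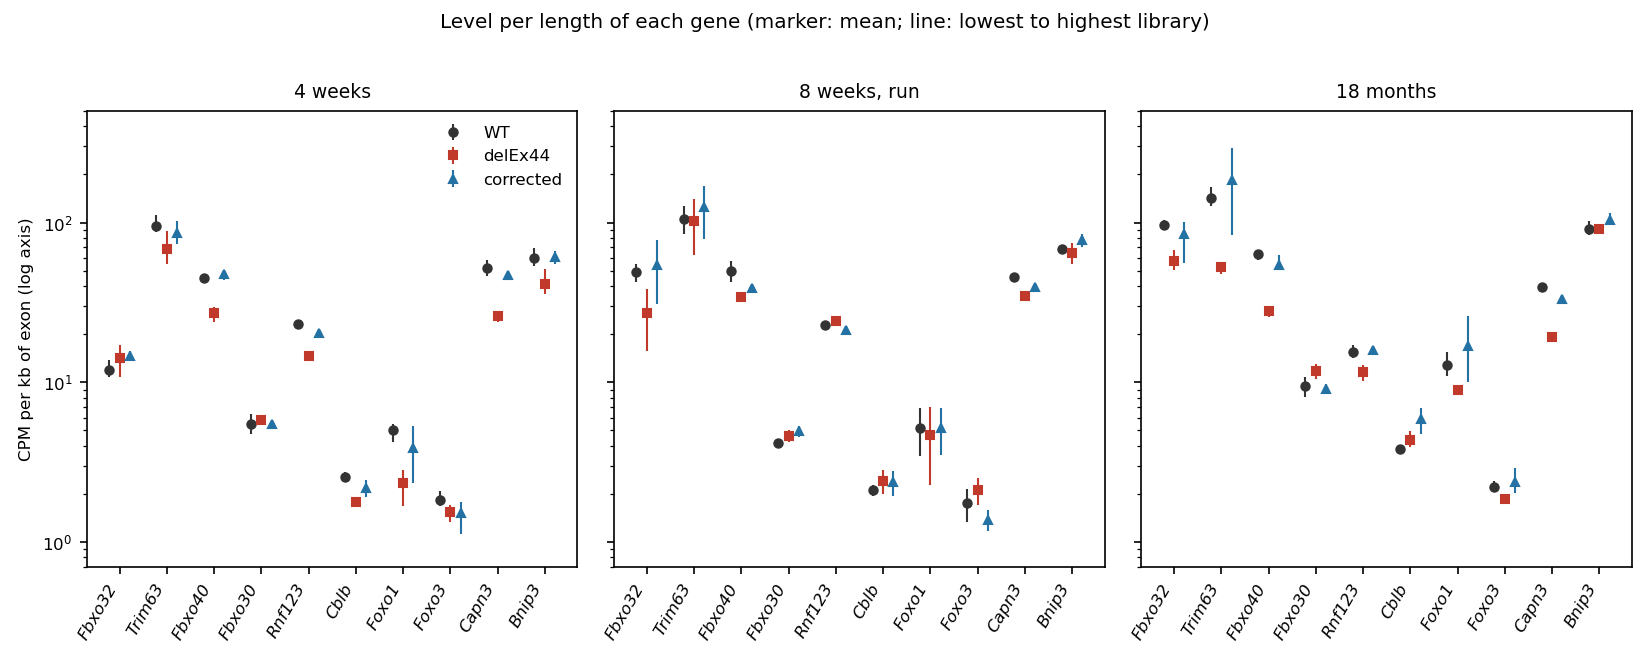
Mean CPM per kb of exon (log axis) of the 10 genes in WT, delEx44 and corrected muscle at each stage, with lines from the lowest to the highest library. Trim63 is highest in WT at every stage, and Fbxo32 rises in rank from 11.9 CPM per kb in WT at 4 weeks to 96.1 at 18 months.

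Genes were tested with edgeR's quasi-likelihood test, with p-values adjusted over all genes of a fit, and "rose" or "fell" is used for an adjusted p under 0.05. At 4 weeks 5 of the 10 genes fell in delEx44 against WT muscle and 0 rose; of all 15013 genes tested 25% fell and 50.2% changed in either direction. The median log2 fold change of the 10 was -0.52, against -0.0039 over all genes. In corrected against delEx44 muscle 4 of the 10 rose and 0 fell, where 22.1% of all genes rose and 46.3% changed. After running 2 of the 10 fell in delEx44 muscle (14.2% of all genes fell, 29.1% changed), and 0 changed in corrected against delEx44 muscle (23.2% of all genes; 3 members and 5461 genes had an unadjusted p under 0.05, and DESeq2 called 1 member). At 18 months 5 fell and 1 rose in delEx44 muscle (23.8% of all genes fell, 28.8% rose and 52.7% changed), with a median of -0.47 against 0.048 over all genes. In corrected against delEx44 muscle at 18 months 5 rose and 1 fell, where 19.6% of all genes rose, 21.4% fell and 41% changed. The delEx44 libraries of a stage serve both comparisons, so the 2 sets of values are not independent.

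Few of the genes changed in corrected against WT muscle. At 4 weeks 0 of the 10 genes and 0% of all genes changed by edgeR's test; 1 member (Rnf123) and 1497 genes had an unadjusted p under 0.05, and DESeq2 called 0 members. After running 0 of the 10 changed, with 0.02% of all genes (0.00666% higher, 0.0133% lower), and 1 member (Fbxo40) and 1455 genes had an unadjusted p under 0.05, with 0 members called by DESeq2. At 18 months Cblb rose and Capn3 fell (2 of 10, against 4.76% of all genes, 2.34% higher and 2.43% lower).

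**Figure D2:**
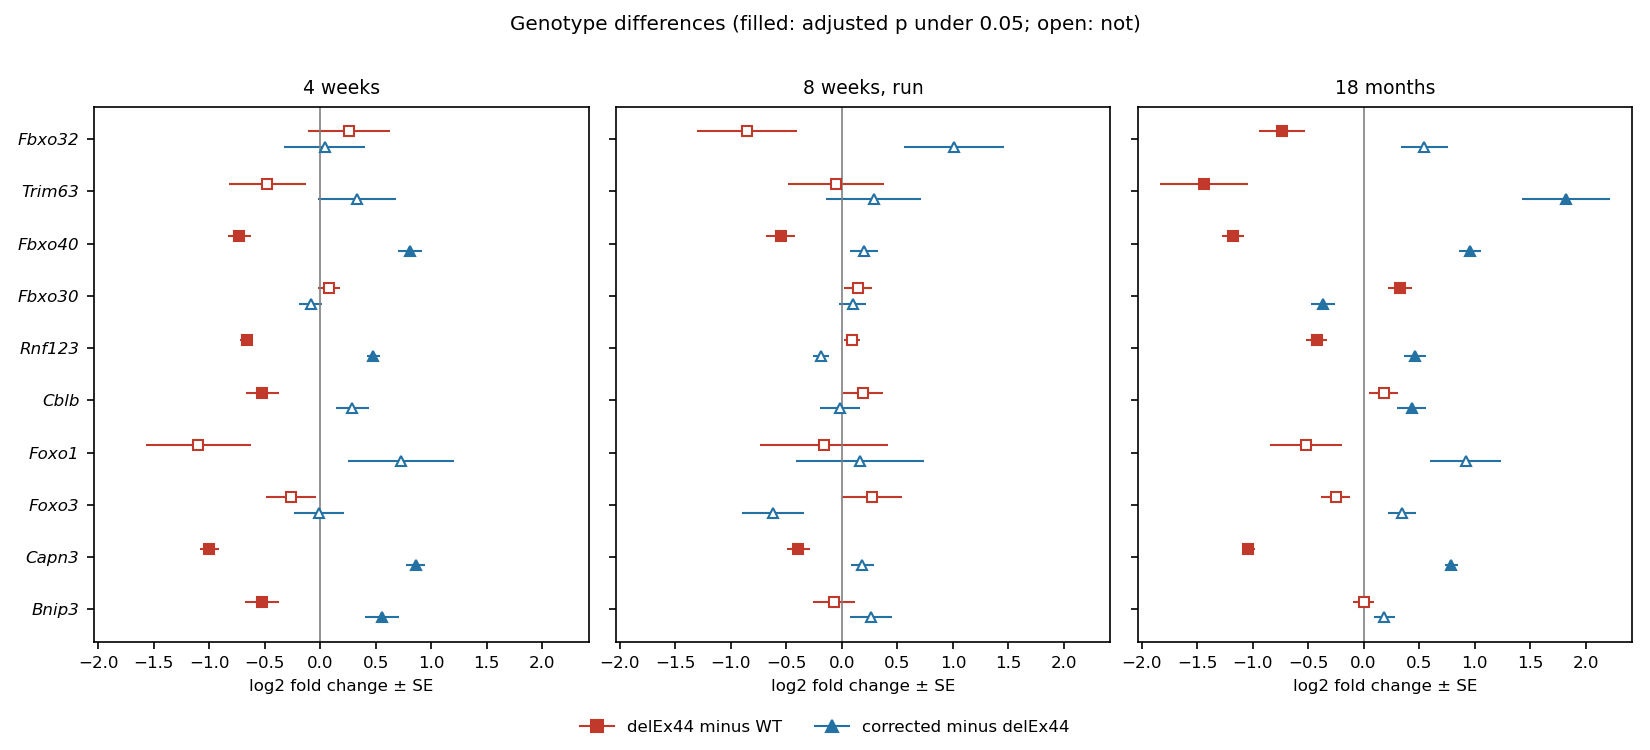
Log2 fold change with its standard error for delEx44 minus WT (squares) and corrected minus delEx44 (triangles) at 4 weeks, after running and at 18 months; filled markers have an adjusted p under 0.05. Capn3 and Fbxo40 are below 0 in delEx44 at all 3 stages, on the TMM scale (Fbxo40 is at 0.066 at 4 weeks when muscle fibre genes are set level), and Trim63 has its widest differences at 18 months (-1.44 and 1.82).

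The direction of several 4-week differences depended on what the libraries were scaled to. CPM here use TMM factors, which set the bulk of genes level, so a fall on this scale is a fall relative to that bulk. When the 12 muscle fibre genes were set level instead, the median of all genes in delEx44 against WT moved from -0.0039 to 0.80 at 4 weeks and from 0.048 to 0.44 at 18 months. Per fibre transcript Capn3 was still lower in delEx44 at 4 weeks (-0.20, adjusted p = 0.0301) and at 18 months (-0.65, adjusted p = 5.33e-05), and so were Fbxo40 (-0.79, adjusted p = 2.74e-05) and Trim63 (-1.05, adjusted p = 0.0420) at 18 months. At 4 weeks Fbxo40 (0.066, adjusted p = 0.524), Rnf123 (0.14, adjusted p = 0.195) and Cblb (0.28, adjusted p = 0.102) were no longer lower, and Bnip3 (0.27, adjusted p = 0.0427), Foxo3 (0.53, adjusted p = 0.0141), Fbxo30 (0.89, adjusted p = 2.22e-05) and Fbxo32 (1.04, adjusted p = 0.0223) were higher. At 18 months Rnf123 (-0.040, adjusted p = 0.692) and Fbxo32 (-0.36, adjusted p = 0.125) did not pass, and Cblb (0.56, adjusted p = 0.00106) and Bnip3 (0.38, adjusted p = 0.00305) were higher in delEx44. In corrected against delEx44 muscle at 4 weeks Capn3 was higher on this scale (0.21, adjusted p = 0.0233), Fbxo40 was at 0.16 (adjusted p = 0.133), and Rnf123 (-0.18, adjusted p = 0.107) and Bnip3 (-0.083) turned below 0. In run against 4-week delEx44 muscle Rnf123 was at 0.13 (adjusted p = 0.313) and Capn3 turned to -0.19. Unless a value is said to be on the fibre scale, the gene values that follow are on the TMM scale. A scaling moves all genes of a library by a common factor, so distances from the median of all genes stay nearly the same by construction. At 4 weeks Capn3 was -0.99 from that median in both scalings, Fbxo40 -0.72 and -0.73, and Rnf123 -0.66 and -0.66.

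**Figure D3:**
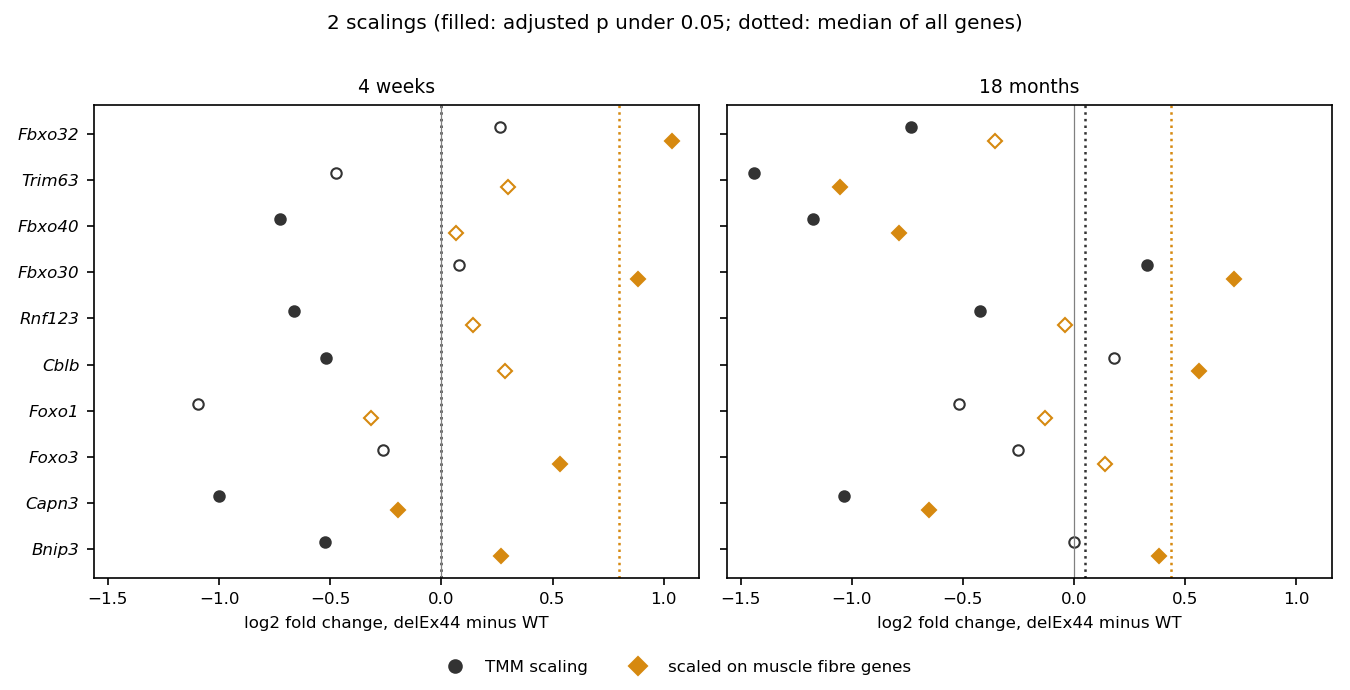
Log2 fold change of delEx44 minus WT at 4 weeks and 18 months with TMM scaling (circles) and with the muscle fibre genes set level (diamonds); filled markers have an adjusted p under 0.05 and dotted lines are the medians of all genes. Fibre scaling shifts every gene to the right, by about the shift of the all-gene median (0.80 at 4 weeks), and Capn3 stays left of 0 at both ages.

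Fbxo32 (GRCm38, the build of all gene positions here, chr15:58175879-58214932, minus strand), the atrogin-1 gene, encodes the substrate-binding part of a ligase that acts on myogenic and translation factors. At 4 weeks it stood at 75.5, 76.6 and 96.1 CPM in WT, 75.5, 103 and 120 CPM in delEx44 and 97.4, 99.5 and 109 CPM in corrected muscle. WT and delEx44 overlapped (log2 fold change 0.26 ± 0.37 SE, adjusted p = 0.578), and the corrected libraries lay just above the highest WT library. After running the levels were 296 and 383 CPM in WT, 109 and 267 CPM in delEx44 and 214 and 542 CPM in corrected muscle. Both delEx44 libraries were below both WT libraries, with a difference that did not pass (-0.85 ± 0.45, adjusted p = 0.184). Against 4 weeks Fbxo32 rose in run WT muscle (2.04 ± 0.41, adjusted p = 0.00479) and in run corrected muscle (1.89 ± 0.41, adjusted p = 0.00761); in run delEx44 muscle the value was 0.92 ± 0.41 (adjusted p = 0.102). The change in the delEx44 to WT difference with running was -1.12 ± 0.58 (adjusted p = 0.347), and on the fibre scale, where all genes had a median of -0.70, it was -1.75 (adjusted p = 0.0248). Calls of Fbxo32 after running changed with single libraries. Without corrected run replicate 1 the rise in corrected muscle was 1.07 (adjusted p = 0.118). Without delEx44 run replicate 1 the delEx44 to WT difference was -1.64 (adjusted p = 0.0387), and without delEx44 run replicate 2 the rise in delEx44 muscle was 1.43 (adjusted p = 0.0239). Corrected against delEx44 after running was 1.01 ± 0.45 (adjusted p = 0.135), with 1.53 (adjusted p = 0.0307) without corrected replicate 3 and 1.80 (adjusted p = 0.0327) without delEx44 replicate 1. Summed neutrophil markers were 61.3 to 193 CPM in the run libraries, and fibroblast markers were 3160 to 5911 CPM there against 8663 to 12665 CPM at 4 weeks; their part in the change with running was not tested.

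At 18 months Fbxo32 was at 633, 651 and 728 CPM in WT, 351, 387 and 471 CPM in delEx44 and 390, 669 and 708 CPM in corrected muscle. All 3 delEx44 libraries were below all WT libraries, and Fbxo32 fell (-0.73 ± 0.21, adjusted p = 0.0183). Corrected muscle held 2 libraries at the WT level and replicate 3 inside the delEx44 range, and its difference from delEx44 did not pass (0.55 ± 0.21, adjusted p = 0.0683; 0.80 and adjusted p = 0.000645 without corrected replicate 3). The delEx44 to WT call ended without WT replicate 3 or delEx44 replicate 1 or 3 (adjusted p = 0.0564 to 0.0709). Between 4 weeks and 18 months the delEx44 to WT difference of Fbxo32 changed by -1.02 ± 0.28 (adjusted p = 0.0329), a contrast in which 3 of the 10 members and 10.9% of all genes changed (7.02% higher, 3.91% lower). It ended in 8 of 12 leave-one-out fits (adjusted p = 0.0635 to 0.0824) and held without 4-week WT replicate 3 or delEx44 replicate 1, or without the first unnumbered WT library or delEx44 replicate 2 at 18 months.

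Trim63 (chr4:134315120-134329629, plus strand) encodes MuRF1, a ligase of the sarcomere that acts on thick-filament proteins. The 4-week levels were 248, 249 and 316 CPM in WT, 156, 176 and 253 CPM in delEx44 and 208, 235 and 292 CPM in corrected muscle. The genotypes overlapped (delEx44 against WT -0.47 ± 0.35, adjusted p = 0.284). After running WT libraries had 242 and 359 CPM, delEx44 178 and 401 CPM and corrected 224 and 482 CPM, again with overlap (-0.053 ± 0.43, adjusted p = 0.939). At 18 months delEx44 stood apart from both other genotypes, which overlapped: 359, 379 and 474 CPM in WT, 135, 153 and 158 CPM in delEx44 and 237, 510 and 832 CPM in corrected muscle. Trim63 fell in delEx44 (-1.44 ± 0.39, adjusted p = 0.0200), to 36.9% of the WT mean, and rose in corrected against delEx44 muscle (1.82 ± 0.39, adjusted p = 0.0103). Corrected replicates 1, 2 and 3 had 510, 832 and 237 CPM of Trim63 and 540, 239 and 908 CPM of summed macrophage markers, and the part of the latter was not tested. The lowest corrected library was above the highest delEx44 library, while the corrected libraries spanned 3.51-fold among themselves. Its rise in corrected muscle kept an adjusted p under 0.05 when each library was left out, with 1.33 without corrected replicate 2 and 2.21 without replicate 3. The fall in delEx44 ended without WT replicate 3 or any 1 of the delEx44 libraries (adjusted p = 0.0521 to 0.0667). The corrected to delEx44 difference grew between 4 weeks and 18 months by 1.52 ± 0.46 (adjusted p = 0.0423; 1 of 10 members and 15.9% of all genes, 7.75% higher and 8.12% lower). That call held in leave-one-out fits only without corrected 18-month replicate 3 and ended in the other 11 (adjusted p = 0.0527 to 0.0989; 1.01 without corrected 18-month replicate 2).

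Fbxo40 (chr16:36963460-36990467, minus strand) is an F-box ligase of muscle known to act on the insulin receptor substrate IRS1. At 4 weeks its levels were 239, 251 and 258 CPM in WT, 132, 157 and 162 CPM in delEx44 and 242, 274 and 275 CPM in corrected muscle. Every delEx44 library was below every other library of that age. Fbxo40 fell in delEx44 on the TMM scale but not on the fibre scale (-0.73 ± 0.11, adjusted p = 0.000106; fibre scale 0.066) and rose in corrected against delEx44 muscle (0.81 ± 0.11, adjusted p = 6.87e-05). After running the levels were 233 and 316 CPM in WT, 185 and 190 CPM in delEx44 and 207 and 223 CPM in corrected muscle. The fall in delEx44 passed (-0.55 ± 0.13, adjusted p = 0.00711; -0.32 and adjusted p = 0.106 without WT run replicate 2), and the corrected libraries lay between the other genotypes without differing from delEx44 by test (0.20 ± 0.13, adjusted p = 0.292). At 18 months WT libraries had 323, 359 and 363 CPM, delEx44 142, 158 and 163 CPM and corrected 277, 279 and 345 CPM. Fbxo40 fell in delEx44 to 44.3% of the WT mean (-1.17 ± 0.098, adjusted p = 1.75e-05) and rose in corrected against delEx44 muscle (0.96 ± 0.098, adjusted p = 7.40e-05). Corrected and WT overlapped (-0.21 ± 0.098, adjusted p = 0.209; -0.32 and 0.0191 without corrected replicate 2). The delEx44 to WT difference moved by -0.46 ± 0.14 between 4 weeks and 18 months (adjusted p = 0.0399), a call that held in leave-one-out fits only without delEx44 4-week replicate 1 and ended in the other 11 (adjusted p = 0.0514 to 0.103).

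Fbxo30 (chr10:11281330-11298052, plus strand) encodes MUSA1, an F-box ligase known from denervated muscle, and was the 1 member called higher in delEx44 than in WT at 18 months. At 4 weeks it was at 24.6, 27.6 and 32.9 CPM in WT, 28.8, 30.0 and 31.2 CPM in delEx44 and 27.3, 27.7 and 29.8 CPM in corrected muscle. These ranges overlapped (delEx44 against WT 0.081 ± 0.10, adjusted p = 0.527). Run libraries had 21.0 and 22.3 CPM in WT, 21.9 and 26.0 CPM in delEx44 and 23.5 and 27.7 CPM in corrected muscle. Fbxo30 fell with running in WT (-0.39 ± 0.11, adjusted p = 0.0244; fibre scale -0.31, adjusted p = 0.195) and in delEx44 (-0.32 ± 0.11, adjusted p = 0.0410), and in corrected muscle the value was -0.14 ± 0.11 (adjusted p = 0.379). The WT call ended without WT 4-week replicate 2 or either run library (adjusted p up to 0.141), and the delEx44 call without any 4-week library or run replicate 2 (adjusted p up to 0.288). At 18 months the levels were 42.0, 48.9 and 55.6 CPM in WT, 54.7, 61.9 and 67.2 CPM in delEx44 and 45.5, 45.9 and 51.0 CPM in corrected muscle. Fbxo30 rose in delEx44 (0.33 ± 0.11, adjusted p = 0.0265), with the highest WT library above the lowest delEx44 library, and fell in corrected against delEx44 muscle (-0.37 ± 0.11, adjusted p = 0.0201). The rise ended with the DESeq2 test (0.28, adjusted p = 0.0515), with DESeq2 size factors (0.28, adjusted p = 0.0548) and without either unnumbered WT library or delEx44 replicate 1 or 3 (adjusted p up to 0.106), and the fall without delEx44 or corrected replicate 1 or 3 (adjusted p up to 0.0868).

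Rnf123 (chr9:108051534-108083346, minus strand) encodes KPC1, a ligase known to act on the cell-cycle inhibitor Cdkn1b. It had a small spread between libraries, and at 4 weeks the levels were 154, 156 and 158 CPM in WT, 96.9, 97.4 and 102 CPM in delEx44 and 134, 134 and 144 CPM in corrected muscle. The 3 genotypes did not overlap. Rnf123 fell in delEx44 on the TMM scale (-0.66 ± 0.058, adjusted p = 2.50e-06; fibre scale 0.14) and rose in corrected against delEx44 muscle (0.48 ± 0.058, adjusted p = 4.15e-05; fibre scale -0.18). After running the levels were 154 and 154 CPM in WT, 154 and 175 CPM in delEx44 and 142 and 146 CPM in corrected muscle, so that delEx44 was no longer below WT (0.094 ± 0.071, adjusted p = 0.351). Against 4 weeks Rnf123 rose in run delEx44 muscle (0.74 ± 0.065, adjusted p = 1.37e-05; fibre scale 0.13, adjusted p = 0.313), and stayed within the spread in WT (-0.020 ± 0.065, adjusted p = 0.848). The change of the delEx44 to WT difference with running passed (0.76 ± 0.092, adjusted p = 0.00597), as 1 of 10 members against 0.879% of all genes (0.586% higher, 0.293% lower), and was 0.063 (adjusted p = 0.727) on the fibre scale. The corrected to delEx44 difference changed the other way (-0.66 ± 0.092, adjusted p = 0.0139; 2 of 10 members and 1.42% of all genes; adjusted p = 0.0863 without corrected run replicate 3, and -0.048 on the fibre scale). These contrasts share the delEx44 libraries. At 18 months the levels were 96.5, 101 and 115 CPM in WT, 68.4, 77.9 and 86.8 CPM in delEx44 and 102, 105 and 114 CPM in corrected muscle. Rnf123 was again lower in all delEx44 libraries (-0.42 ± 0.097, adjusted p = 0.00456) and rose in corrected against delEx44 muscle (0.46 ± 0.097, adjusted p = 0.00368; fibre scale 0.20, adjusted p = 0.0700). Exons of Rnf123 share 1327 bases with genes on the other strand (Gmppb, Mst1 and Gm20529); with the strand setting of the counting not given in the sources used here, their reads cannot be told apart.

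Cblb (chr16:52031225-52208048, plus strand) encodes a ligase that acts on IRS1 in unloaded muscle and restrains T cell activation. At 4 weeks it was at 25.3, 25.7 and 28.9 CPM in WT, 17.6, 18.8 and 19.2 CPM in delEx44 and 20.1, 22.3 and 25.7 CPM in corrected muscle. No delEx44 library reached the other genotypes, and Cblb fell in delEx44 on the TMM scale (-0.52 ± 0.15, adjusted p = 0.0107; fibre scale 0.28). Summed markers of T cells were 3.29 to 6.89 CPM in delEx44 and 0.850 to 1.19 CPM in WT at that age, and their part was not tested. Run libraries had 20.4 and 23.7 CPM in WT, 20.9 and 29.4 CPM in delEx44 and 20.4 and 29.3 CPM in corrected muscle, which overlapped. At 18 months the order differed, with 38.7, 40.1 and 41.6 CPM in WT, 41.1, 43.8 and 51.5 CPM in delEx44 and 49.8, 61.9 and 72.4 CPM in corrected muscle. Cblb rose in corrected muscle against WT (0.61 ± 0.13, adjusted p = 0.0351) and against delEx44 (0.43 ± 0.13, adjusted p = 0.0221; fibre scale 0.17, adjusted p = 0.215), although corrected replicate 3 lay inside the delEx44 range. The call against WT ended without any 1 WT library or corrected replicate 1 (adjusted p = 0.0886 to 0.136), and that against delEx44 without delEx44 replicate 1 or 3 or corrected replicate 1 or 2 (adjusted p = 0.0505 to 0.0878). The delEx44 to WT difference of Cblb changed by 0.68 ± 0.17 between 4 weeks and 18 months (adjusted p = 0.0176), and this passed with each library left out in turn, but not on the fibre scale (0.28, adjusted p = 0.222).

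Foxo1 (chr3:52268336-52353221, plus strand) encodes a FoxO factor tied to the atrophy ligases, and its mRNA itself rises in fasting. At 4 weeks its levels were 36.5, 46.8 and 47.5 CPM in WT, 14.5, 22.3 and 24.4 CPM in delEx44 and 20.3, 35.1 and 45.9 CPM in corrected muscle. All delEx44 libraries were below all WT libraries, but the difference did not pass (-1.10 ± 0.48, adjusted p = 0.0820); it passed with DESeq2 (adjusted p = 0.0412), with limma-voom (adjusted p = 0.0464) and in a fit of the 2 groups alone (adjusted p = 0.00521). After running the libraries of each genotype were 2.00-fold, 3.07-fold and 1.99-fold apart: 30.1 and 60.1 CPM in WT, 19.7 and 60.7 CPM in delEx44 and 30.1 and 59.99 CPM in corrected muscle. No genotype difference could be seen against this spread (delEx44 against WT -0.16 ± 0.58, adjusted p = 0.858). At 18 months the levels were 94.6, 103 and 134 CPM in WT, 74.5, 77.1 and 79.4 CPM in delEx44 and 87.3, 123 and 226 CPM in corrected muscle. The delEx44 libraries were the lowest (-0.52 ± 0.32, adjusted p = 0.212, and 0.00125 in a fit of the 2 groups alone). Corrected libraries were above them (0.92 ± 0.32, adjusted p = 0.0567; 1.22 and adjusted p = 0.00789 without corrected replicate 3, 0.45 without replicate 2). Exons of Foxo1 share 674 bases with the antisense gene Gm20402.

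Foxo3 (chr10:42181841-42276755, minus strand) encodes the FoxO factor known for driving both atrogin-1 and autophagy genes, and it was the least abundant member. At 4 weeks it had 12.7, 13.3 and 15.8 CPM in WT, 10.1, 11.8 and 12.9 CPM in delEx44 and 8.45, 12.9 and 13.4 CPM in corrected muscle. The run libraries had 10.1 and 16.3 CPM in WT, 12.9 and 19.0 CPM in delEx44 and 8.85 and 12.0 CPM in corrected muscle. Neither stage gave a call, with -0.26 ± 0.22 (adjusted p = 0.347) and 0.27 ± 0.27 (adjusted p = 0.491) for delEx44 against WT. At 18 months the levels were 15.5, 16.6 and 18.2 CPM in WT, 13.7, 13.8 and 14.6 CPM in delEx44 and 15.3, 16.5 and 21.9 CPM in corrected muscle, and all delEx44 libraries were the lowest. The difference from WT was -0.25 ± 0.13 (adjusted p = 0.121) and that of corrected from delEx44 was 0.35 ± 0.13 (adjusted p = 0.0504). The latter passed without corrected replicate 1 (0.41, adjusted p = 0.0475) or 3 (0.48, adjusted p = 0.0108), and was 0.18 without replicate 2.

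Capn3 (chr2:120456019-120504913, plus strand), the calpain-3 gene, was lower in delEx44 than in WT muscle at every stage. At 4 weeks the levels were 234, 257 and 292 CPM in WT, 120, 134 and 138 CPM in delEx44 and 229, 233 and 250 CPM in corrected muscle. All delEx44 libraries were well below the rest, at 50.1% of the WT mean. Capn3 fell in delEx44 (-0.998 ± 0.086, adjusted p = 2.13e-06) and rose in corrected against delEx44 muscle (0.86 ± 0.086, adjusted p = 1.12e-05). After running the levels were 216 and 239 CPM in WT, 168 and 179 CPM in delEx44 and 192 and 203 CPM in corrected muscle. The 3 genotypes kept their order without overlap, and Capn3 in delEx44 was at 76.2% of WT (-0.39 ± 0.11, adjusted p = 0.0142; adjusted p = 0.116 without WT run replicate 2, 0.0889 without delEx44 run replicate 1 and 0.0662 on the fibre scale). Against 4 weeks Capn3 rose in run delEx44 muscle on the TMM scale (0.41 ± 0.096, adjusted p = 0.00527; fibre scale -0.19), while in corrected muscle the value was -0.27 ± 0.096 (adjusted p = 0.0578) and in WT -0.20 ± 0.096 (adjusted p = 0.146). The change of the corrected to delEx44 difference with running passed (-0.68 ± 0.14, adjusted p = 0.0363), but in leave-one-out fits it held only without delEx44 4-week replicate 2 or 3 (other fits 0.0542 to 0.121), and was -0.073 (adjusted p = 0.624) on the fibre scale. That of delEx44 against WT was 0.61 ± 0.14 (adjusted p = 0.0565; 0.0347 without WT 4-week replicate 3).

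At 18 months Capn3 was at 193, 195 and 206 CPM in WT, 93.1, 98.3 and 98.3 CPM in delEx44 and 161, 169 and 171 CPM in corrected muscle. The groups did not overlap: Capn3 fell in delEx44 to 48.7% of WT (-1.04 ± 0.058, adjusted p = 3.20e-06) and rose in corrected against delEx44 muscle (0.79 ± 0.058, adjusted p = 1.73e-05). Corrected muscle stayed below WT (-0.25 ± 0.058, adjusted p = 0.0432), a call that held in leave-one-out fits only without corrected replicate 2 (other fits 0.078 to 0.170) and ended on the fibre scale (-0.13, adjusted p = 0.281). Between 4 weeks and 18 months the delEx44 to WT difference of Capn3 changed by -0.058 ± 0.11 on the TMM scale (adjusted p = 0.793) and by -0.46 on the fibre scale (adjusted p = 0.00600). Capn3 shares 386 exon bases with Ganc on its own strand.

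Bnip3 (chr7:138890836-138909519, minus strand) encodes a receptor that marks mitochondria for autophagy and is a known FoxO3 target. At 4 weeks the levels were 121, 128 and 156 CPM in WT, 80.3, 85.1 and 116 CPM in delEx44 and 124, 140 and 150 CPM in corrected muscle, with all delEx44 libraries lowest. Bnip3 fell in delEx44 on the TMM scale (-0.52 ± 0.16, adjusted p = 0.0140; fibre scale 0.27) and rose in corrected against delEx44 muscle (0.56 ± 0.16, adjusted p = 0.0112; fibre scale -0.083). The first call ended without WT replicate 1 or delEx44 replicate 1 or 2 (adjusted p = 0.0577 to 0.0681) and the second without delEx44 replicate 1 (adjusted p = 0.0549). Run libraries had 150 and 158 CPM in WT, 125 and 168 CPM in delEx44 and 160 and 191 CPM in corrected muscle, and WT and delEx44 overlapped. Against 4 weeks Bnip3 rose in run delEx44 muscle (0.64 ± 0.17, adjusted p = 0.0123; 0.41 and adjusted p = 0.163 without delEx44 run replicate 1, 0.059 and adjusted p = 0.693 on the fibre scale). At 18 months the levels were 188, 204 and 230 CPM in WT, 191, 208 and 223 CPM in delEx44 and 222, 225 and 261 CPM in corrected muscle. The delEx44 range lay inside the WT range (-0.00049 ± 0.096, adjusted p = 0.996). Exons of Bnip3 share 504 bases with the antisense gene Gm45507.

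**Figure D4:**
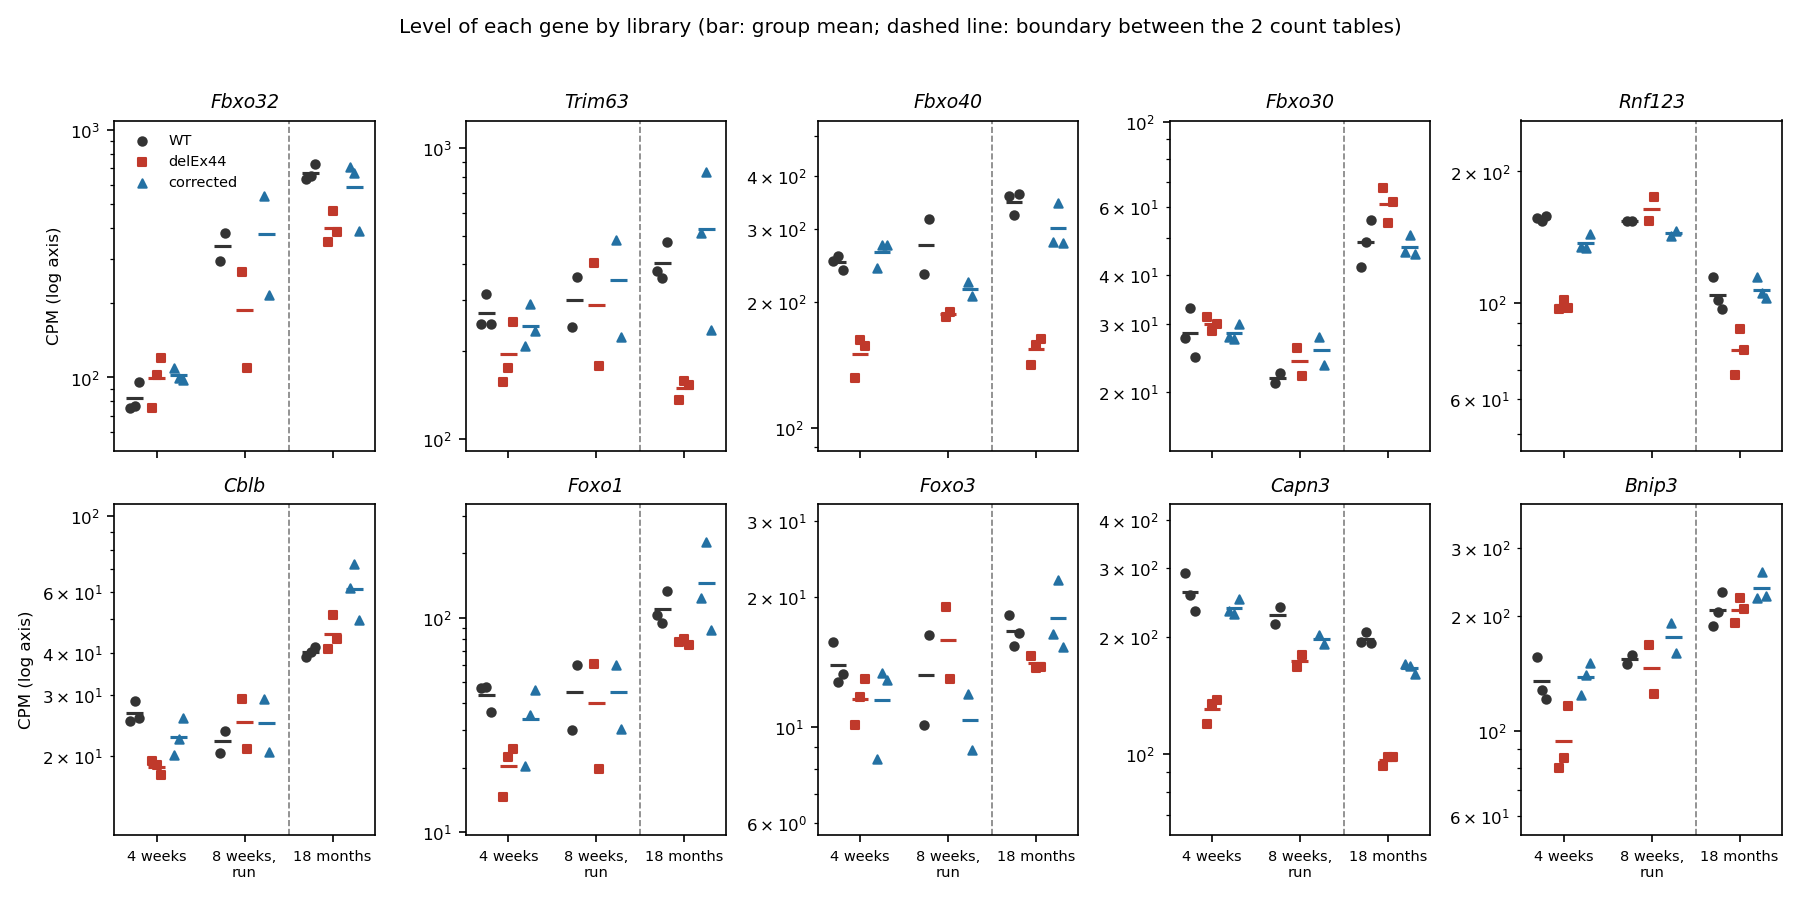
CPM (log axis) of each gene in every library of WT (circles), delEx44 (squares) and corrected (triangles) muscle at 4 weeks, after running at 8 weeks and at 18 months; bars are group means and the dashed line parts the count tables. Capn3 in delEx44 (93.1 to 138 CPM when sedentary) is below every WT library, and the run libraries of Fbxo32, Trim63 and Foxo1 lie far apart within a genotype.

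Counted by comparison, running against 4 weeks changed 2 of the 10 genes in WT (27.6% of all genes), 4 in delEx44 (35.7%) and 1 in corrected muscle (25.8%). Fbxo32 was the gene that rose in WT and corrected muscle. In delEx44 muscle Rnf123, Capn3 and Bnip3 rose and Fbxo30 fell. The 4-week delEx44 libraries enter these values and the 4-week genotype comparisons alike.

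Counts of list genes are read beside the shares of all genes in delEx44 against WT muscle: 25.2% rose and 25% fell at 4 weeks, 14.9% and 14.2% after running, and 28.8% and 23.8% at 18 months. Of 19 ubiquitin ligase and ubiquitin genes outside the 10, 1 rose and 12 fell at 4 weeks (median log2 fold change -0.33), 1 rose and 8 fell after running (-0.24), and 2 rose and 11 fell at 18 months (-0.46). In corrected against delEx44 muscle 11, 6 and 12 rose and 1, 2 and 1 fell. Of all genes 22.1%, 10.8% and 19.6% rose and 24.2%, 12.4% and 21.4% fell in that comparison. Asb2, the substrate adaptor of a ligase that restrains muscle mass, fell furthest among those named by rule, from 1048 to 333 CPM after running (-1.66 ± 0.14, adjusted p = 1.38e-05) and from 539 to 121 CPM at 18 months (-2.16 ± 0.13, adjusted p = 4.04e-06). Ubr2, an N-end rule ligase, fell at each stage (-0.50, -0.42 and -0.59), and Trim55 (MuRF2) fell at 18 months (-0.86 ± 0.057, adjusted p = 5.58e-06). Fbxl22, a sarcomere F-box gene, went the other way at each stage (0.65, 1.27 and 0.85). Setting the fibre genes level shifts all genes alike, so counts on that scale follow the common shift. On it 13 of the list rose and 0 fell at 4 weeks, with a list median of 0.53 against 0.80 over all genes, and 7 rose and 8 fell at 18 months, with -0.074 against 0.44.

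FoxO relatives, FoxO targets and autophagy genes (24) gave 2 that rose and 11 that fell at 4 weeks, 3 and 2 after running, and 4 and 9 at 18 months in delEx44 muscle. Beside the shares of all genes, that is more falling than rising at 4 weeks and 18 months, and 5 of 24 changed after running against 29.1% of all genes. Foxo4 fell at 4 weeks (-0.73 ± 0.085, adjusted p = 1.77e-05) and 18 months (-0.53 ± 0.083, adjusted p = 0.000504). The autophagy kinase gene Ulk1 fell at all 3 stages (-0.60, -0.51 and -0.80) and rose in corrected against delEx44 muscle at all 3 (0.65, 0.51 and 0.54). The mitophagy kinase gene Pink1 fell at 4 weeks (-0.67), and Sesn1, a stress-induced brake on mTOR, at 18 months (-1.10). Cdkn1a, the p21 cell-cycle inhibitor gene, rose at 4 weeks (1.36 ± 0.41, adjusted p = 0.0213) and 18 months (1.47 ± 0.22, adjusted p = 0.00104), and Map1lc3a, an LC3 gene of the autophagosome, after running (0.59) and at 18 months (0.69). With fibre scaling this list had 16 that rose and 1 that fell at 4 weeks and 12 and 3 at 18 months. These counts cannot be read apart from the common shift of all genes on that scale.

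Upstream, the insulin, IGF and AKT list (16 genes) had 1 that rose and 7 that fell at 4 weeks, 1 and 2 after running and 4 and 6 at 18 months (12 and 0, 1 and 1, and 7 and 2 with fibre scaling). The 4 that rose at 18 months are below the 28.8% of all genes. Counts with fibre scaling, here and for the next list, cannot be read apart from the common shift of all genes. The insulin receptor gene Insr fell at all stages (-0.73, -0.61 and -0.69), and the kinase gene Akt1 rose at all (0.35, 0.37 and 0.52). The growth factor gene Igf1 rose at 18 months from 46.1 to 119 CPM (1.36 ± 0.22, adjusted p = 0.00155). Of the 18 genes of glucocorticoid, myostatin, NF-kB and denervation signalling 5 rose and 3 fell at 4 weeks, 3 and 3 after running and 7 and 3 at 18 months (11 and 1, 2 and 2, and 10 and 1 with fibre scaling), and the 4-week counts are near or below the 25.2% and 25% of all genes. Mstn, the gene of the growth inhibitor myostatin, fell at all stages (-1.34, -0.98 and -2.30). Runx1 (2.33, 2.29 and 2.61) and Myog (2.19, 2.27 and 1.94), transcription factor genes that rise in denervated muscle, rose at all stages; regenerating fibre markers, which include myogenic genes, were at 690 to 1364 CPM in delEx44 and 121 to 143 CPM in WT at 4 weeks, and their part in these changes was not tested.

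Among 13 genes of the calpain system and calpain-3 partners, 2 rose and 5 fell in delEx44 at 4 weeks, 5 and 0 after running, and 4 and 3 at 18 months (11 and 1, 3 and 0, and 8 and 1 with fibre scaling). At 18 months the 4 and 3 on the TMM scale are close to the 28.8% and 23.8% of all genes. The counts with fibre scaling cannot be read apart from the common shift of all genes. Capn6, a calpain-like gene of developing muscle, rose at 4 weeks (0.90 ± 0.16, adjusted p = 0.000632) and after running (0.97 ± 0.21, adjusted p = 0.00497). Capn2, the large subunit of m-calpain, rose at all 3 stages (0.26, 0.35 and 0.36). Ttn, the gene of the titin scaffold that holds calpain-3, and 1 of the 12 fibre genes used for scaling, fell at 4 weeks (-1.35 ± 0.23, adjusted p = 0.000459) and 18 months (-0.49 ± 0.12, adjusted p = 0.00587), and Capn1 (-0.35) and the dysferlin gene Dysf (-0.38) fell at 4 weeks.

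Within a group, the 10 genes differed in how far their levels spread. In the first table the log2 SD between libraries of a group was 0.617 for Foxo1, 0.485 for Fbxo32 and 0.463 for Trim63, at the percentiles 95.5, 91.3 and 90.1 of all 15013 genes (median 0.145). Rnf123 had 0.0561 (percentile 3.68) and Capn3 0.107 (percentile 34.0). Between these lay Fbxo30, Fbxo40, Cblb, Bnip3 and Foxo3, at percentiles 47.1, 48.9, 63.7, 65.4 and 78.4. At 18 months Trim63 (0.546, percentile 92.7), Foxo1 (0.429) and Fbxo32 (0.307) were again the most variable, and Capn3 (0.0474, percentile 2.87) the least, while Rnf123 was in the middle of all genes (0.133, percentile 44.6).

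Foxo1, Fbxo32 and Trim63 varied together within groups, but not they alone. Over the 15 libraries of the first table, after subtracting each group's mean, Pearson's r was 0.863 between Trim63 and Foxo1. It was 0.869 between Fbxo32 and Trim63, 0.732 between Fbxo32 and Foxo1 and 0.910 between Foxo1 and Foxo3. Over the 9 libraries at 18 months the values were 0.947, 0.850, 0.680 and 0.853. Cblb, at percentiles 63.7 and 61.0 in spread, had 0.701 with Fbxo32, 0.773 with Trim63 and 0.836 with Foxo1. At 18 months these values of Cblb were 0.892, 0.891 and 0.820. Between Capn3 and Fbxo32 r was 0.063 and 0.591. The points share library depth and scaling, and these r are a description. The 2 run libraries of a genotype mirror each other around their mean, so they are not separate points. In delEx44 run replicate 1 against replicate 2 Foxo1 was 3.07-fold, Fbxo32 2.45-fold and Trim63 2.26-fold higher, while Capn3 was at 0.934 and Rnf123 at 0.881 of the other library; 4.06% of all genes differed at least 2-fold in this pair. In corrected run replicate 1 against replicate 3 Fbxo32 was 2.53-fold and Trim63 2.15-fold higher (3.59% of all genes at least 2-fold apart). In the corrected 18-month replicate 2 against replicate 3 Trim63 was 3.51-fold and Foxo1 2.59-fold higher, and all 10 genes were higher in replicate 2 (8.98% of all genes at least 2-fold apart, 49.5% higher). Summed slow fibre markers were 142, 1789 and 481 CPM in corrected replicates 1, 2 and 3, and their part was not tested.

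**Figure D5:**
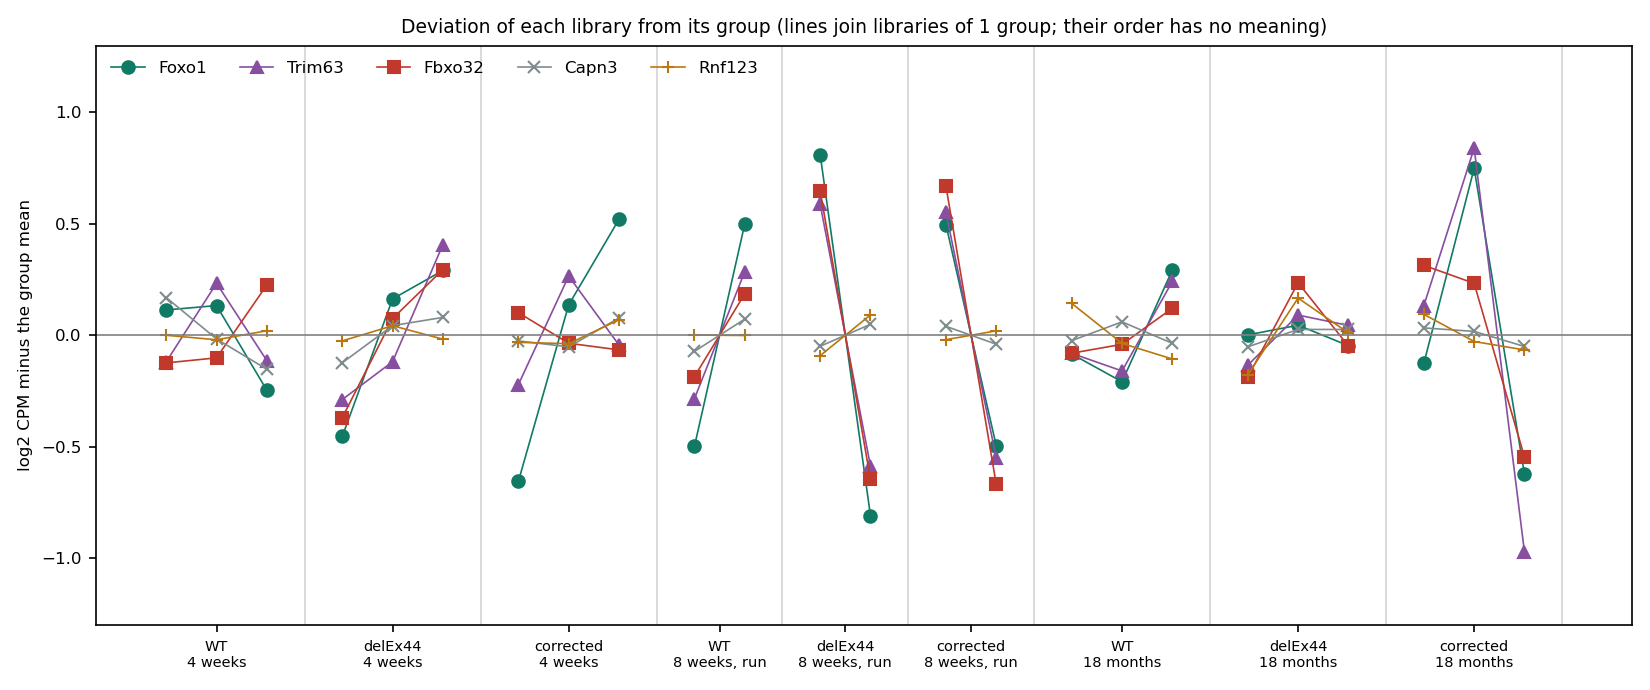
Log2 CPM of each library minus its group mean for Foxo1, Trim63, Fbxo32, Capn3 and Rnf123. Foxo1, Trim63 and Fbxo32 lie on the same side of 0 in every run library and in the 18-month corrected replicates 2 and 3, down to -0.97 for Trim63. The 2 run libraries of a genotype deviate by equal and opposite amounts by construction. They do not in all 4-week libraries. Capn3 and Rnf123 lie closer to 0 in those run and 18-month corrected libraries, but not in every library of the other groups.

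Some genes of the FoxO, ubiquitin and insulin lists varied with Foxo1 within groups. Of the 24 FoxO list genes 7 had an r over 0.7 with Foxo1 within groups of the first table, against 4.51% of all genes. At 18 months 5 had one, against 7.54%, and the list medians of r were 0.527 and 0.427. Of the 19 ubiquitin ligase and ubiquitin genes 5 and 3 had an r over 0.7 with Foxo1, with medians of 0.346 and 0.505. With Fbxo32 and Trim63 the medians of the ubiquitin list were 0.086 and 0.252 in the first table and 0.622 and 0.574 at 18 months. Those of the FoxO list were 0.482 and 0.479, and 0.408 and 0.489. The insulin, IGF and AKT list (16 genes) had 1 and 3 (medians 0.162 and 0.366). The calpain list (13 genes) had 0 and 1 (medians 0.022 and 0.039). Chosen after their values were seen, Pdk4, a FoxO target that holds back glucose oxidation, was at 510 and 36.2 CPM in the delEx44 run replicates 1 and 2, at 1538 and 411 CPM in the corrected run replicates 1 and 3, and at 2666, 4269 and 1342 CPM in the 18-month corrected replicates 1, 2 and 3. Fkbp5, a glucocorticoid receptor target from the glucocorticoid list, was at 163 and 40.5 CPM, at 160 and 58.5 CPM, and at 243, 309 and 171 CPM in the same libraries. In the WT run replicates 1 and 2 Pdk4 was at 315 and 383 CPM and Fkbp5 at 53.9 and 104 CPM. Since both were picked for these values, they do not bear on their lists. The list that holds Fkbp5 had a median r with Foxo1 of -0.057 in the first table and -0.23 at 18 months. Of its 18 genes 3 and 2 had an r over 0.7.

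By rule, the 3 genes most like each member were taken by r of log2 CPM over the 15 libraries of the first table, with r over the 9 later libraries beside it. Capn3 was closest to Fermt2 (0.988 and 0.947), Jph1 (0.985 and 0.977) and Xirp2 (0.983 and 0.826). Fbxo40 was closest to Prpf4 (0.9704 and 0.959), Napepld (0.964 and 0.983) and Mbnl1 (0.963 and 0.937), and between Fbxo40 and Capn3 themselves r was 0.930 and 0.976. Trim63 was closest to Slc43a3 (0.941 and 0.558), Prickle3 (0.919 and 0.980) and Pkp4 (0.906 and 0.895). Foxo1 was closest to Hif3a (0.941 and 0.781), Sult1a1 (0.935 and 0.793) and Plin4 (0.933 and 0.947), and Rnf123 to Man2a2 (0.965 and 0.958). For Bnip3 the likeness to Mrps23 (0.956) was not kept at 18 months (0.218), nor was that of Fbxo30 to H3f3a (0.905 and 0.036). Fbxo32 with Tmem238 had 0.941 and 0.576, Cblb with Cep85l 0.920 and 0.477, and Foxo3 with Jade2 0.863 and -0.118. These values span genotypes and share the libraries' scaling.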

How the data were processed

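Polyadenylated RNA of 24 quadriceps libraries was sequenced. The authors deposited raw read counts per gene in 2 tables; per the submitters' processing notes reads were handled on mm10 with HTSeq, edgeR, STAR 2.7.2b, Trim Galore, SAMtools 1.9 and Bowtie2 2.3.4.3. Which aligner fed the counts, and the annotation and strand setting, is not given in the sources used here. The 5 rows that name no gene (27.4% to 34.2% of records in the first table, 42.2% to 48.3% in the second) were left out. Libraries held 23125930 to 38090522 gene counts, and replicates differed beyond sampling noise.

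Counts were tested with edgeR 4.0.16 (R 4.3.3; filterByExpr, TMM, robust quasi-likelihood F-test, 1 mean per group) on all libraries of a table (15 and 9; 15013 and 14337 genes), and changes with age on the 18 sedentary libraries (14937 genes), in 16 comparisons. P-values were adjusted by Benjamini-Hochberg over all genes, threshold 0.05; SE are Wald errors, and log2 CPM used a prior count of 2. The procedure was tested on simulated data. Alternatives were DESeq2 1.42.0, its size factors, limma-voom 3.58.1, no filter, fibre-gene scaling, the compared groups alone and leaving out each library.

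The members and lists were chosen with earlier results of these data known. Genes named were the 10 members, up to 3 per direction and list with the smallest p among those that passed, and the 3 most like each member.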

Additional observations from a re-analysis of the deposited data

Results flagged for a closer look

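On the TMM scale the size of a genotype difference changed between stages in 7 cases, each by a test of the change itself with edgeR (log2 scale). With running, the delEx44 to WT difference of Rnf123 changed by 0.76 ± 0.092 (adjusted p = 0.00597), from lower in delEx44 at 4 weeks to overlapping. The corrected to delEx44 difference changed by -0.66 ± 0.092 for Rnf123 (adjusted p = 0.0139) and by -0.68 ± 0.14 for Capn3 (adjusted p = 0.0363). Between 4 weeks and 18 months, the delEx44 to WT difference changed by -1.02 ± 0.28 for Fbxo32 (adjusted p = 0.0329), by -0.46 ± 0.14 for Fbxo40 (adjusted p = 0.0399) and by 0.68 ± 0.17 for Cblb (adjusted p = 0.0176). The corrected to delEx44 difference of Trim63 grew by 1.52 ± 0.46 (adjusted p = 0.0423). On the scale with muscle fibre genes set level the changes of Rnf123 were 0.063 (adjusted p = 0.727) and -0.048, that of Capn3 was -0.073 (adjusted p = 0.624) and that of Cblb 0.28 (adjusted p = 0.222), none past the threshold. Leaving out 1 library ended the call in 11 of 12 fits each for Fbxo40 and Trim63, in 8 of 12 for Fbxo32, in 8 of 10 for Capn3 and in 1 of 10 for the change of Rnf123 in corrected against delEx44 muscle. The cases with age set 2 separate count tables side by side, and all 7 contrasts use delEx44 libraries.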

How the results depend on the processing

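Of 39 pairs of gene and comparison that passed, 8 passed under every alternative run: Capn3 in delEx44 against WT and corrected against delEx44 at 4 weeks and 18 months, Fbxo40 in both at 18 months, Trim63 in corrected against delEx44 at 18 months, and Fbxo32 in run WT muscle. With muscle fibre genes set level, delEx44 against WT turned to 0.066 (Fbxo40), 0.53 (Foxo3), 0.14 (Rnf123), 0.28 (Cblb) and 0.27 (Bnip3) at 4 weeks and 0.38 (Bnip3) at 18 months. Only sign changes of genes that passed on the TMM or the fibre scale are listed here. Genes that passed on neither scale are left out. Corrected against delEx44 at 4 weeks turned to -0.18 (Rnf123), -0.37 (Cblb) and -0.083 (Bnip3), and run against 4-week delEx44 to -0.28 (Fbxo40) and -0.19 (Capn3). The change of delEx44 against WT with running turned to -0.62 (Fbxo30) and -0.49 (Fbxo40), and that of corrected against delEx44 with age to 0.31 (Capn3). This scaling called 1 member in delEx44 against WT after running, 1 in corrected against WT at 18 months, 1 and 2 in run WT and run delEx44, 3 for the change of delEx44 against WT with running, and 1 and 7 for the changes of corrected against delEx44 with running and age.

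Fits of the compared groups alone called 0 in delEx44 against WT after running, 0 in corrected against WT at 18 months, 1 in run WT, 3 in run corrected and 0 for the change of corrected against delEx44 with age. DESeq2 called 1 in corrected against delEx44 after running, 2 in run corrected and 2 for the change of delEx44 against WT with running. Without the filter 1 was called in corrected against WT at 18 months, 1 for the change of delEx44 against WT with age and 0 for that of corrected against delEx44 with age. The cause of these shifts was not tested.

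Leaving out 1 library gave 4 to 5 members in delEx44 against WT and 3 to 4 in corrected against delEx44 at 4 weeks, 0 to 2 in each after running, and 3 to 5 and 4 to 8 at 18 months. Corrected against WT gave 0 at 4 weeks and after running and 0 to 3 at 18 months. Running gave 1 to 2 in WT, 3 to 6 in delEx44 and 0 to 1 in corrected muscle. The changes of delEx44 against WT gave 1 to 2 with running and 1 to 3 with age, and those of corrected against delEx44 0 to 2 with each. With 2 run libraries, a lone remaining library is assumed to vary like the other groups.

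With the replicate number as a block, corrected against delEx44 at 18 months had 5 members called, against 6, and Fbxo30 had an adjusted p of 0.0518. Same-numbered libraries there did not deviate together (r = -0.031, 0.025 and -0.049). These values gave no sign that the numbers pair them, but with so few libraries they cannot exclude a weak pairing. No paired analysis was possible for the other comparisons because the labels or columns of their groups share fewer than 2 replicate numbers that pair them.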
